A study of Bos taurus with 35 samples.

Results

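The genes described here are low or silent in the omental fat of Hanwoo cattle and expressed in subcutaneous and intramuscular fat. They were chosen by measured values: the median CPM of a gene (its reads scaled to a common library size) had to be at least 2 in subcutaneous (S) and in intramuscular (I) fat, each at least 3 times the median in omental (O) fat, and S and I had to lie less than 4-fold apart. Of 24596 genes in the count tables, 36 met these limits. TBX15 and FGF7 were among them but belong to the genes of the study's qRT-PCR primers, which were left out by the rule. The remaining 34 genes are called members below, and the difference of O from S and I is their definition and not a result. The name of the group held only in part, since 17 members had an O median under 1 CPM, 13 between 1 and 10 CPM, and 4 of 10 CPM or more.

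RNA-seq libraries were made from adipose tissue and skeletal muscle of 9 Hanwoo animals aged 30 months, raised at one experimental station. By the labels, replicates 1, 4 and 7 were female, replicates 2, 5 and 8 were castrated males, and replicates 3, 6 and 9 were males, and libraries with the same replicate number came from the same animal. S and I fat came from the rib section and O fat from the lesser curvature of the abomasum, so depot and body site cannot be told apart. There were 9 O, 9 S, 8 I and 8 muscle (M) libraries, and the I library of replicate 9 and the M library of replicate 7 were not used here.

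Fat depots differ in their embryonic origin as well as in their metabolism. Omental fat is visceral and lies along the gut, subcutaneous fat belongs to the body wall, and intramuscular fat lies between muscle fibres and shares its site with them. Cells of different body regions are known to keep distinct sets of homeobox and T-box transcription factors after development, and TBX15, a T-box factor, is a known example that separates fat depots. Whether genes low in O differ in the same way from animal to animal, and whether muscle of the body wall has them on or off, is the question addressed here. The tables give Ensembl identifiers without names, and no name could be paired with any of the 34 members, so their functions are not stated. Members are numbered 1 to 34 by the falling sum of their S and I medians. CPM takes no account of gene length, so the numbers order reads and not transcripts, and values are compared between tissues for one gene. In whole tissue, fewer cells of a type and less RNA per cell cannot be told apart.

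Depth on genes ran from 3726376 to 7184022 counts over the 34 libraries, and 3 counts corresponded to 0.355 to 0.565 CPM in O and S and to 0.849 to 1.25 CPM in M. These figures cover counting error only. TPM2, a muscle tropomyosin, had medians of 156 CPM in O, 168 CPM in S, 1450 CPM in I and 30500 CPM in M. FASN, the fatty acid synthase, had medians of 2390, 4170, 599 and 64.7 CPM in the same order. The I libraries therefore held TPM2 reads at 4.77% of the M level, against 0.552% in S. The M library of replicate 4 is labelled female. Its summed level of 5 genes, found in every fat library of males and castrated males, was 210.5 CPM, against at most 0.416 CPM in the other female libraries. Results on muscle are therefore also given without it. The O library of replicate 8 stood apart for the members, and its values are given below.

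The lowest O levels belonged to ENSBTAG00000003278 and ENSBTAG00000040082, the only members with an O median of 0. ENSBTAG00000003278 (member 22) had 0 counts in 7 of 9 O libraries, 1 count in replicate 3 and 3 counts in replicate 8. Its level was 2.18 to 13.0 CPM in S with a median of 7.74, 5.07 to 10.6 CPM in I with a median of 8.20, and 21.9 to 111 CPM in M with a median of 71.0. The highest O library, at 0.412 CPM, lay below every S, I and M library. The mean in O was 0.0617 ± 0.14 CPM (SD, n = 9) on 4 counts in all, and the means were 7.28 ± 3.62 CPM (SD, n = 9) in S and 8.21 ± 1.81 CPM (SD, n = 8) in I. ENSBTAG00000040082 (member 19) had 10 counts over the 9 O libraries, of which 6 were in replicate 8. Its level ran from 0 to 14.8 CPM in S with a median of 11.3, from 5.95 to 25.2 CPM in I with a median of 7.97, and from 13.3 to 29.1 CPM in M with a median of 23.4. S overlapped O for this gene through the S library of replicate 8, which had 0 counts. The S library of replicate 5 had 5 counts (0.837 CPM), just above the highest O library at 0.823 CPM. The other S libraries lay between 6.98 and 14.8 CPM.

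**Figure D1:**
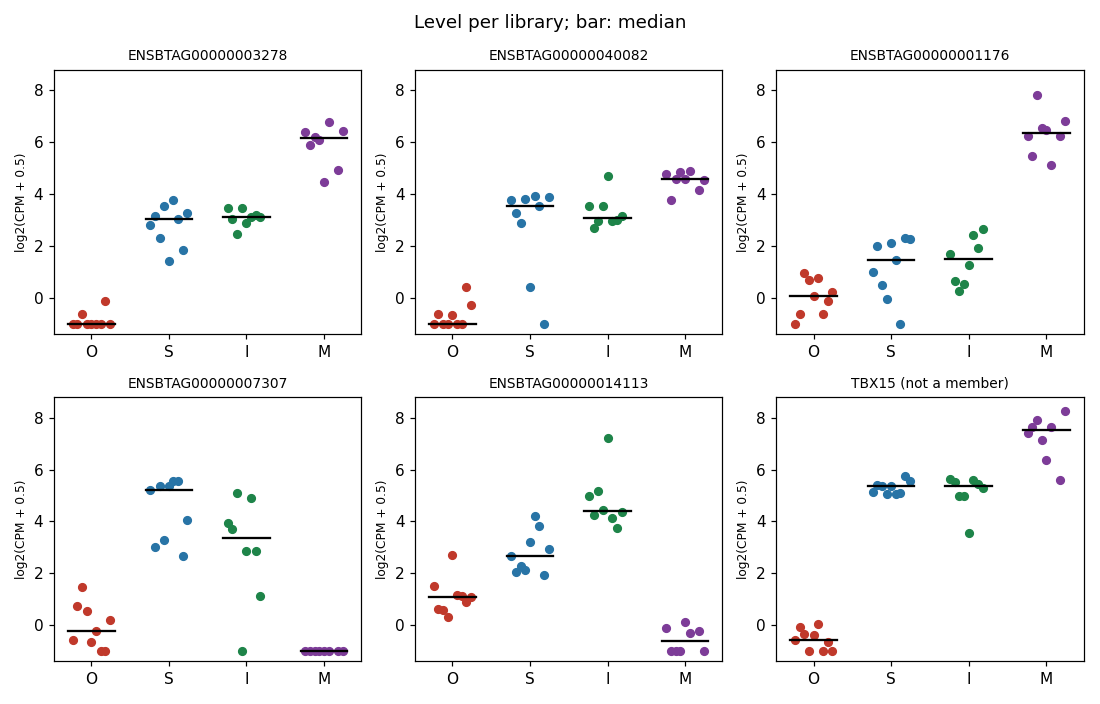
Level of 5 members and of TBX15 in each library, as log2(CPM + 0.5), in omental (O), subcutaneous (S), intramuscular (I) fat and muscle (M); each point is 1 library and each bar a median. ENSBTAG00000003278 is at or near 0 counts in O and highest in M, while ENSBTAG00000007307 is at 0 in all 8 M libraries.

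TBX15 showed a similar order of levels, although it is no member. It had 0 to 0.518 CPM in O, 32.5 to 53.4 CPM in S, 11.1 to 49.7 CPM in I and 47.8 to 309 CPM in M. FGF7, a fibroblast growth factor, had another order. Its medians were 11.9 CPM in O, 53.6 CPM in S, 91.7 CPM in I and 4.34 CPM in M, and S overlapped O.

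Few members were off in O in the strict sense. In O, 2 members (22 and 32) exceeded 3 counts in none of the 9 libraries. In 9 members at most 4 libraries exceeded 3 counts, and in 14 members all 9 did. In S, 31 members exceeded 3 counts in all 9 libraries, and 33 members did so in all 8 I libraries. The smaller of the S and I medians was at least 20 times the O median in 5 members, at least 10 times in 10 members and at least 5 times in 16 members, and over the 34 members the middle ratio was 4.41. Member 14, with an O median of 0.178 CPM (highest library 1.10 CPM), had 12.5 CPM in S (3.14 to 44.3) and 24.8 CPM in I (4.35 to 39.5). Member 20 had 0.439 CPM in O (0.288 to 0.960), 9.94 CPM in S (6.02 to 12.2) and 6.88 CPM in I (4.29 to 12.2). No O library of either member reached the lowest S or I library.

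The most abundant members were not off in O but reduced. Member 1 had a median of 50.2 CPM in O (35.4 to 90.8), 199.6 CPM in S (81.2 to 473) and 556 CPM in I (303 to 1332). The lowest S library lay under the highest O library, and I did not overlap O. Member 2 had 120.5 CPM in O (97.1 to 219), 362 CPM in S (310.0 to 622) and 383 CPM in I (226 to 509.7). S and I lay above O in all libraries of this member, by a small margin in I. Member 4 had 2.73 CPM in O in its middle library, replicate 3, and 0.759 to 11.1 CPM over the 9 libraries. It had 51.6 CPM in S (16.8 to 136) and 86.4 CPM in I (23.7 to 132.5), with no overlap. Member 3 had 24.9 CPM in O, 180.0 CPM in S and 225 CPM in I. One O library, replicate 8 at 121 CPM, reached into its S range of 42.1 to 302 CPM and stayed under its lowest I library at 125 CPM.

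**Figure D2:**
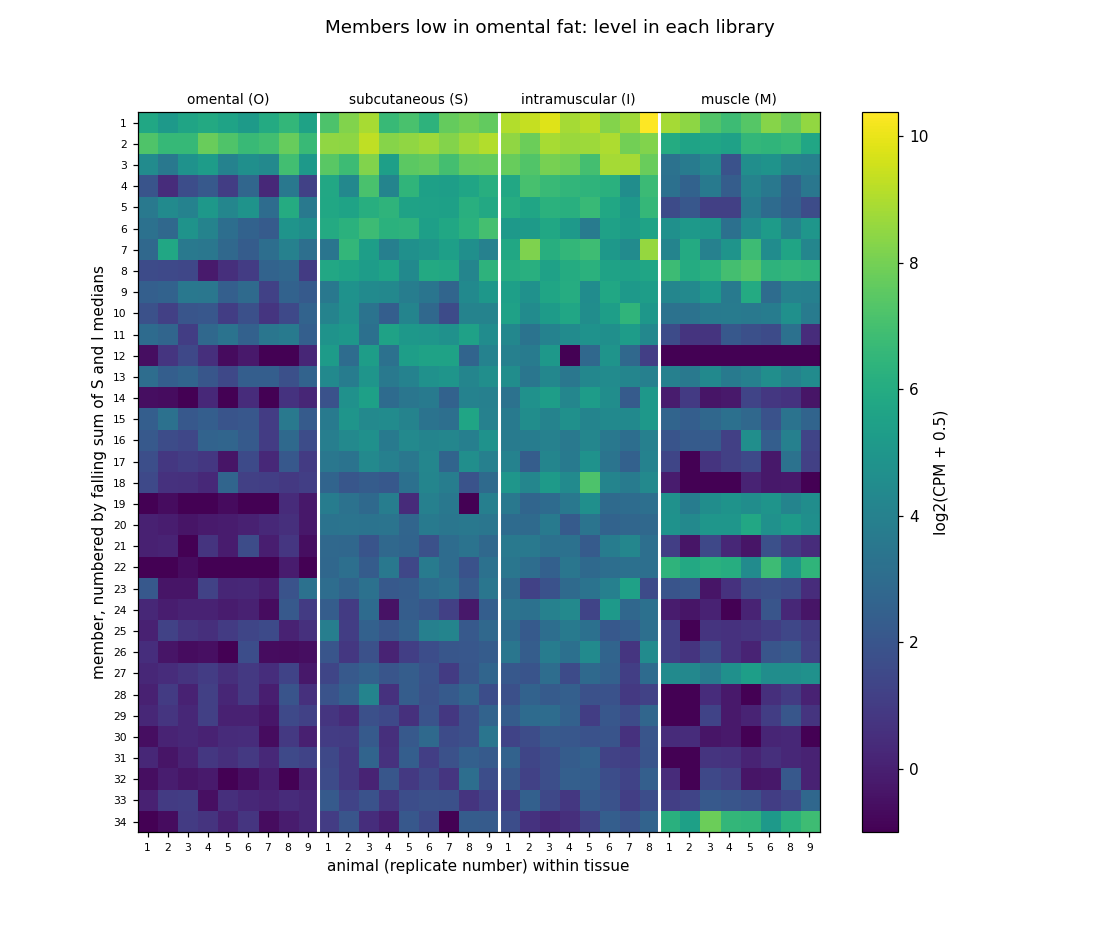
Level of the 34 members (rows, numbered by falling sum of S and I medians) in the 34 libraries (columns, by tissue and animal), as log2(CPM + 0.5) on the colour scale. The O block is the darkest of the fat blocks in all rows by its median, the O column of replicate 8 is lighter than its neighbours in many rows, and rows 8, 19, 20, 22, 27 and 34 are brightest in muscle.

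The rule's limit cut through a continuous range. The 3 members just inside it had smaller ratios to O of 3.008, 3.011 and 3.016, and the 3 genes just outside it 2.849, 2.964 and 2.973. Between 2 and 3 times O lay 43 further genes. The limit on the ratio of S to I alone kept out 4 more genes. The I median was above the S median in 23 members and below it in 11, with I over S running from 0.262 to 3.53 and a median of 1.21. In 24 members S and I were within 2-fold of each other.

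Constancy between animals was examined in the libraries themselves. Every S library lay above every O library in 13 members, against 0.351% of the 11977 genes with S and I medians of at least 2 CPM. Every I library lay above every O library in 19 members, where 6.34% of those genes had this separation, and both held in 11 members, where 0.167% did. The rule used these values, so the shares describe the members only. Thus 23 of 34 members overlapped O in S, in I or in both. Within the 8 animals with all 3 fats, S and I of the animal were both above its own O in 258 of 272 comparisons of a member in an animal (94.9%). They were both at least 3 times O in 172 (63.2%), against 0.547% of comparisons over the 11977 genes. For S and I both above O, no share over all genes was taken, so those figures have no background beside them. In 5 members, numbers 4, 14, 17, 20 and 22, the 3-fold difference held in all 8 animals, and in 24 members S and I were above O in all 8. In 15 members the 3-fold difference held in 4 animals or fewer.

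**Figure D3:**
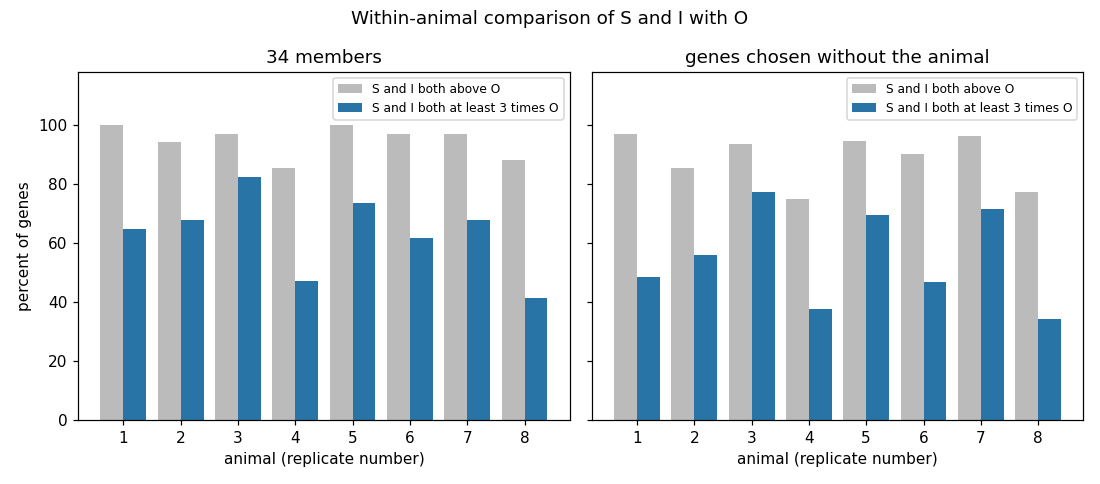
Percent of genes whose S and I levels were both above O (grey) or both at least 3 times O (blue) within each of the 8 animals with all 3 fats, for the 34 members (left) and for genes chosen by the same rule without that animal (right). Animals 4 and 8 have the lowest blue bars in both panels.

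When the rule was applied without an animal and the chosen genes were read in that animal, the shares were lower. Over the 8 animals 28 to 40 genes were chosen, 265 in sum with genes repeated between rounds. In the animal left out, S and I were both above O in 233 of these (87.9%) and both at least 3 times O in 144 (54.3%). Over the 11977 genes, 0.547% of comparisons in an animal reached 3 times O. For both above O, no share over all genes was taken, so 87.9% cannot be read as particular to the chosen genes. The second share was 77.4% in animal 3 and 71.4% in animal 7, but 37.5% in animal 4 and 34.3% in animal 8. These values rest on levels that did not enter the choice, and no test was made of them. Of the 34 members, 22 were chosen in all 9 rounds that left out 1 animal.

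The O library of replicate 8 carried the highest O level of 20 of the 34 members, whereas 11.3% of the 11977 genes had their highest O level there. Its mean of log2(CPM + 0.5) over the members was 2.14, and the other O libraries lay between 1.05 and 1.62. The corresponding mean over the 11977 genes was 4.78 in this library and 4.75 to 4.79 in the others. Its TBX15 level of 0.137 CPM was within the range of the other O libraries. Without this library the rule chose 39 genes, including all 34 members, and S and I both lay clear of O in 15 members in place of 11. The share of the 11977 genes clear of O was then 0.259% in place of 0.167%. What sets this library apart was not tested.

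The levels of the members within S and I varied more between animals than those of most genes. The SD of log2(CPM + 0.5) between the 9 S libraries had a median of 0.770 over the members and of 0.330 over the 11977 genes, and 32 of 34 members lay above the latter. In I the medians were 0.611 and 0.400, with 31 members above, and in O they were 0.691 and 0.315, with 32 above. Among genes of at most 20 CPM in S, where counting error is larger, the S medians were 0.784 for 23 members and 0.387 for 5060 genes. For the same genes the medians were 0.596 and 0.457 in I, a smaller gap, and 0.641 and 0.372 in O. The O levels of members were selected as low, so their SDs in O carry more counting error than those of the genes beside them. The S and I levels of these libraries chose the members too, and a variable gene can meet the limits more easily. The SDs in S and I therefore describe the members only. Member 20 was among the most even, with SDs of 0.270 in S and 0.438 in I, and so was member 16, with 0.388 and 0.343. ENSBTAG00000007307 (member 12) had the largest mean of its S and I SDs, with 1.20 in S and 2.03 in I, while in S alone ENSBTAG00000040082 had a larger SD of 1.78 and member 24 of 1.23. Its S level ran from 5.89 to 46.7 CPM, and its I level from 0 CPM in replicate 4 to 33.4 CPM in replicate 3.

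In S, the same libraries were lowest for several members. ENSBTAG00000003278 had its lowest S levels in replicate 5, at 2.18 CPM, and replicate 8, at 3.11 CPM, and ENSBTAG00000040082 at 0.837 CPM and 0 CPM in these libraries. Member 8 had 20.4 and 17.4 CPM there and 39.1 to 81.6 CPM in the other S libraries. These 3 genes were put side by side after their values were seen. In I, replicates 5 and 8 had 6.84 and 8.28 CPM of ENSBTAG00000003278 and 25.2 and 8.45 CPM of ENSBTAG00000040082, so the low values were seen in S and not in I. TBX15 was at 41.2 and 53.4 CPM in the S libraries of replicates 5 and 8 and was not lowered there.

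Muscle was compared with each fat by the quasi-likelihood test of edgeR at a Benjamini-Hochberg FDR under 0.01. The M values were not used by the rule, but the S, I and O values were, so the members entered with S and I levels selected as high and O levels selected as low, and the counts against each fat are a description of the members. The count filter admitted 29 members in M against S, 31 in M against I and 19 in M against O. The members left out had few counts in both tissues, except ENSBTAG00000007307, which was left out against I although its I median was 9.70 CPM. Against S, 5 members were higher in M and 16 were lower, where 30.5% and 32.2% of the 12707 genes tested were higher and lower. Against I, 6 were higher and 20 lower, where 30% and 29.8% of 12447 genes were. Against O, 11 were higher and 3 lower, where 29.9% and 33.5% of 12878 genes were. Members 20 and 22, with at most 7 and 3 counts in any O library, could enter this comparison only through their M counts. The 19 tested and their median fold change against O therefore favour members high in M. The median log2 fold change of the members tested was -1.61 against S, -1.70 against I and 1.79 against O, and that of all genes tested was -0.04, 0.00 and -0.06. Without the M library of replicate 4 the counts were 5 and 16, 5 and 21, and 11 and 3.

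The ratio of M to the mean of the S and I medians ran from 0 in ENSBTAG00000007307 to 35.5 in ENSBTAG00000001176. Values between these included 0.507 in member 6, 0.983 in member 33 and 1.62 in member 8. In 25 members the M median was below both the S and the I median, in 17 of them at least 3 times lower, in 6 it was above both, and in 3 it lay between them. M was at least 3 times the O median in 17 members, within 3-fold of it in 14, and at most 1/3 of it in 3. The rule chose high S and I and low O medians, which favours M below S and I and above O. No share of all genes was taken for these counts of medians, so they describe the members only. Of the 27 members tested against both S and I, 12 were lower in M than in both and 5 were higher, where 21.8% and 25.1% of the 12195 genes tested in both were.

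ENSBTAG00000001176 (member 34) showed the largest ratio of M to the mean of S and I, 35.5. It had 33.9 to 227 CPM in M with a median of 81.5, against 0 to 4.42 CPM in S with a median of 2.26 and 0.699 to 5.74 CPM in I with a median of 2.33. In O it ran from 0 to 1.44 CPM, with a median of 0.542. M lay far above every fat library, and the 3 fats overlapped each other. The log2 fold change was 5.31 ± 0.49 against S (SE, edgeR adjusted p = 5.3e-09) and 5.15 ± 0.45 against I (edgeR adjusted p = 7.37e-09). Its S and I medians were 2.77% and 2.86% of that in M, and the TPM2 reads in I stood at 4.77% and those of EEF1A2, a translation factor of muscle and nerve, at 2.30% of their M levels. The part of muscle fibres in the I level of this gene was not tested. In S, where TPM2 stood at 0.552%, the gene had a similar level.

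ENSBTAG00000003278, silent in O, was also higher in M than in S, by 3.16 ± 0.34 on the log2 scale (SE, edgeR adjusted p = 6e-08), and than in I, by 3.04 ± 0.29 (edgeR adjusted p = 1.97e-08). Its I median was 11.5% of the M median, above the share of any of the muscle genes TPM2, EEF1A2 and DUSP27 (1.31%). Other primer genes had I medians nearer to or similarly below M, with 233 CPM in I and 257 CPM in M for PPP1R3C and 4.61 and 39.7 CPM for ZIC1. The part of muscle fibres in the I level of ENSBTAG00000003278 was not tested. The lowest M libraries of ENSBTAG00000003278 were replicates 5 and 8, at 21.9 and 30.2 CPM, the animals that were also lowest in S. This did not hold for the other members that were low in S there: the M library of replicate 5 was the highest of member 8, at 159 CPM, and the lowest M library of ENSBTAG00000040082 was replicate 2, at 13.3 CPM. TBX15, not lowered in S, was lowest in M in replicates 8 and 5, at 47.8 and 82.3 CPM. ENSBTAG00000040082 was higher in M than in I by 1.12 ± 0.29 (SE, edgeR adjusted p = 0.0018), and it did not pass the test against S (1.26 ± 0.45, edgeR adjusted p = 0.0165). Without scaling of library composition its difference from I did not pass either (0.33, edgeR adjusted p = 0.264). Against S it passed without animal 8 (1.13, edgeR adjusted p = 0.00488), whose S library had no count, and in the fit blocked by animal (1.64, edgeR adjusted p = 0.00944).

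Members 20, 27 and 8 completed those with the highest level in muscle. Member 20 had 20.1 to 56.6 CPM in M, and its S and I libraries did not exceed 12.2 CPM, with log2 fold changes of 1.64 ± 0.18 and 2.08 ± 0.24 (SE). Member 27 had 12.7 to 41.7 CPM in M, 1.44 to 6.07 CPM in S and 1.65 to 7.86 CPM in I, with log2 fold changes of 2.67 ± 0.25 and 2.33 ± 0.30. All 4 passed the test, and M did not overlap S or I in either member. Member 8 had 64.1 to 159 CPM in M, 17.4 to 81.6 CPM in S and 45.4 to 76.1 CPM in I, and the ranges overlapped. Its log2 fold changes of 1.03 ± 0.26 and 0.76 ± 0.20 passed the test, but without scaling they were 0.13 and -0.02, and without the M library of replicate 4 or without animal 8 the difference from I did not pass (edgeR adjusted p = 0.0169 and 0.0159). Along with the pair that had an O median of 0, members 8 and 20 had O medians of at most 5.22% of their mean S and I level, and members 27 and 34 of 23.1% and 23.6%.

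**Figure D4:**
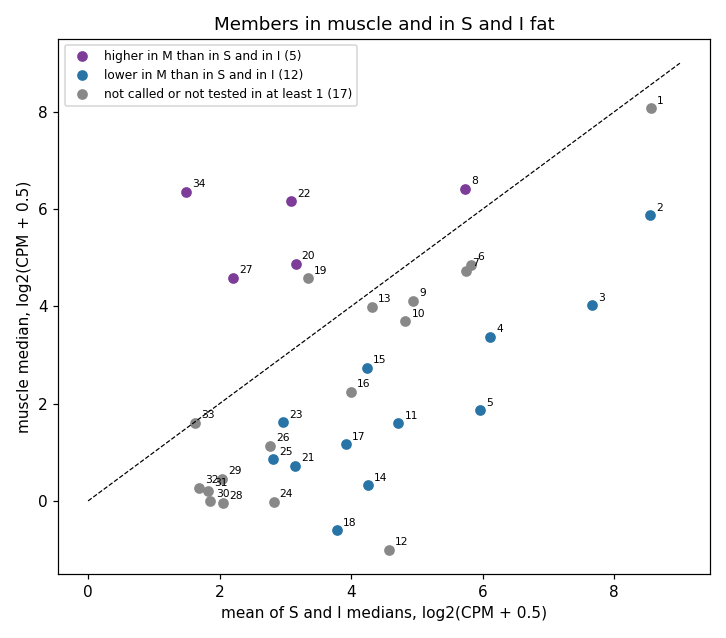
Median level of each member in muscle against the mean of its S and I medians, both as log2(CPM + 0.5); numbers are the member numbers, the dashed line marks equal levels, and colours give the edgeR calls at an FDR under 0.01. Of the members, 5 lie above the line with M higher than S and I, and 12 lie below it with M lower than both.

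ENSBTAG00000007307 had 0 counts in all 8 M libraries, which allows at most 0.849 to 1.25 CPM per library. Its S median of 37.0 CPM was at least 40.3-fold higher than 3 counts in the middle M library (0.918 CPM), and its I median of 9.70 CPM at least 10.6-fold higher. Against S the call passed (edgeR adjusted p = 1.15e-06), and against I the gene was not admitted by the filter. ENSBTAG00000014113 (member 18) had 0 to 0.584 CPM in M, 0.754 to 6.09 CPM in O, 3.27 to 17.8 CPM in S and 12.9 to 147.5 CPM in I. M was below every library of the 3 fats, with log2 fold changes of -5.13 ± 0.60 against S (SE, edgeR adjusted p = 1.89e-07) and -7.43 ± 0.77 against I (edgeR adjusted p = 7.08e-08). Its 4 M libraries without a count make these folds depend on the prior count of the fit. Member 14 was lower in M by fitted log2 changes of -4.09 ± 0.55 and -4.69 ± 0.50, with M at 0.283 to 2.04 CPM. It was therefore low in both O and M.

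Members 2, 5 and 11 were lower in M than in all 3 fats by the test, and 5 members were higher than in all 3, of 19 members tested in all. Members very low in O passed the filter against O only through their M counts, which favours calls of higher in M. Of the 12139 genes tested in all 3 comparisons, 20.8% were lower and 24% higher. Member 2, of which O held 120.5 CPM, had 45.3 to 99.2 CPM in M, and its log2 fold changes were -2.64 ± 0.20 against S, -2.45 ± 0.23 against I and -1.11 ± 0.21 against O. Member 5 had 18.1 CPM in O and 3.14 CPM in M, with log2 fold changes of -3.62 ± 0.32, -3.84 ± 0.37 and -2.35 ± 0.44. Low levels in O and still lower levels in M thus occurred in the same gene. Member 13 was the reverse, with medians of 4.83 CPM in O, 20.8 CPM in S, 17.9 CPM in I and 15.4 CPM in M. M differed from O by 1.79 ± 0.22 on the log2 scale (SE, edgeR adjusted p = 4.36e-07), and its differences from S and I did not pass (-0.35 ± 0.22 and 0.00 ± 0.21).

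Sex as given by the labels was tested over females, castrated males and males within each fat. No member was called by edgeR at an FDR under 0.01 in S (34 tested), I (34 tested) or O (19 tested), and none by DESeq2. Of all genes, 5 of 13260 were called in S (0.0377%), 2 of 13687 in I (0.0146%) and 5 of 13443 in O (0.0372%), each of them among the 5 genes found in males and castrated males. At an unadjusted p under 0.05, 6 members passed in S, where 7.76% of genes did, 4 in I, where 4.08% did, and 2 in O, where 3.88% did. No adjusted p of a member was below 0.618 in S, below 0.981 in I or below 0.999 in O. With 3 animals of a sex, and 2 males in I, differences that were not small could also go uncalled. Member 14 in S, picked after its values were seen, had 3.14, 7.45 and 5.51 CPM in females. Males had 44.3, 12.5 and 14.9 CPM, and castrated males 26.7, 10.7 and 16.2 CPM. Its edgeR unadjusted p was 0.00764 and its edgeR adjusted p was 0.618.

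As a description without a test, the 3 male S libraries had the highest means of log2(CPM + 0.5) over the members, from 3.80 to 4.06. Females lay between 3.20 and 3.62 and castrated males between 3.57 and 3.62. The mean over the 11977 genes was 4.73 to 4.78 in males, 4.72 to 4.81 in females and 4.75 to 4.77 in castrated males. Males had the highest mean of the 3 sexes in 21 of 34 members in S, and in 30.6% of the 11977 genes. In I, the 2 males (4.16 to 4.27) overlapped the castrated males (3.90 to 4.24) and lay above the females (3.67 to 4.08). In O the males (1.40 to 1.58) lay within the range of the females and castrated males.

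**Figure D5:**
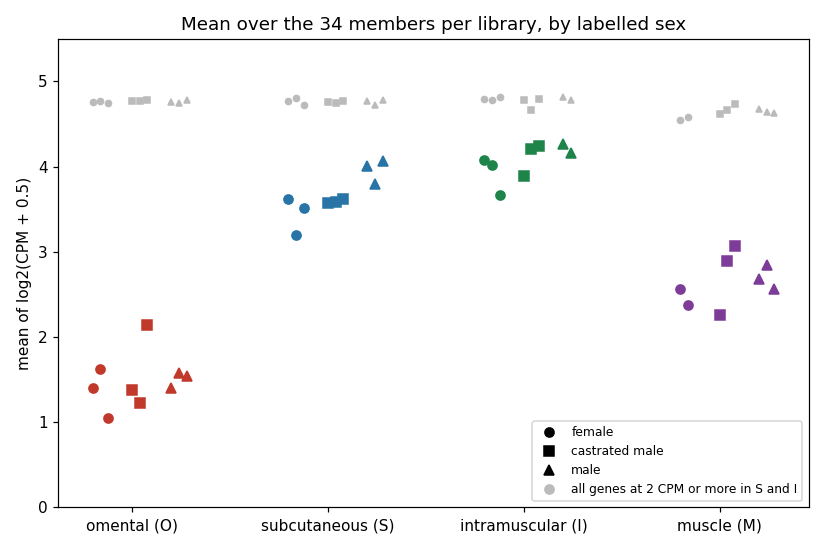
Mean of log2(CPM + 0.5) over the 34 members in each library (coloured points) and over the 11977 genes with S and I medians of at least 2 CPM (grey points), by tissue and labelled sex. Member means lie between 1.05 and 2.14 in O, 3.20 and 4.06 in S, 3.67 and 4.27 in I, and 2.26 and 3.07 in M, while the grey points differ little between the fats.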

How the data were processed

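Libraries of poly(A) RNA were paired-end sequenced. Per the submitters' processing notes and the study's methods, reads were checked with FastQC, mapped to bosTau6 with TopHat2 2.0.2 and counted per Ensembl gene with HTSeq 0.5.3p3. The strand setting, the handling of overlapping genes and the annotation release are not given in the sources used here. Levels of genes that overlap others may therefore be miscounted. The deposited values are raw counts per gene, without normalization. Each table held 24596 genes and 5 lines that name no gene. Reads on these lines stayed out of library sizes, and genes held 28.9% to 36.7% of each table's total of 11129498 to 23427645. No library was a copy of another (lowest chi-square per degree of freedom 12.7 over 128 pairs of a tissue).

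CPM was scaled with TMM over all 34 libraries. Group tests used edgeR 4.0.16 in R 4.3.3 with filterByExpr (count minimum 10), TMM and the quasi-likelihood test without a block, and the standard error is the absolute log2 fold change over the square root of F. DESeq2 1.42.0 was an alternative, as were other scalings, filters and thresholds and leaving out animals. The tests were tried on simulated data. Figures used matplotlib 3.10.9. The members and lists were chosen with earlier results of these data known. Same-numbered libraries come from the same animal by their labels. Deviations from the tissue means of such pairs correlated at 0.28 to 0.77 between O and S and at -0.32 to 0.49 between S and I. They correlated at 0.04 to 0.53 between O and I. With M, the medians were 0.14 for O, 0.02 for S and 0.28 for I. The library of the same animal was the best match in 8 of 9 animals for O and S, 3 of 8 for O and I, and 4 of 8 for S and I. Fits with the animal as a block kept the M library of replicate 4.

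Genes to be named were those with the highest levels, the highest ratios to O, the highest and lowest ratios of M to S and I, the smallest and largest SD, those next to the limits and those called by sex. Identifiers are printed for 5 of them, and the rest are given by number or in counts, since no table paired the members with names. Lists of homeobox, T-box and marker genes, promoters and protein sequences were not analysed here for the same reason.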

Additional observations from a re-analysis of the deposited data

Results flagged for a closer look

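In 140 groups of libraries (each member in each tissue, and the mean over members), the highest or lowest library was set against the rest by Dixon's ratio. It flags about 1 in 20 groups by chance where values are normally distributed. For single members it was taken on CPM, which need not be so distributed and lies near 0 counts for many members. The number of flags is therefore no measure of an excess. The ratio flagged 25 groups, all of them single members. Of these, 7 were high values in the O library of replicate 8. There, member 1 had 90.8 CPM (next 61.9), member 3 had 121 CPM (next 38.4), member 5 had 62.8 CPM (next 32.8), member 19 had 0.823 CPM (next 0.329), member 22 had 0.412 CPM (next 0.144), member 24 had 3.98 CPM (next 1.48) and member 28 had 3.43 CPM (next 1.70). The values of members 19 and 22 rest on 6 and 3 counts.

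In the other O libraries, member 7 stood at 55.0 CPM in replicate 2, member 18 at 6.09 CPM in replicate 5, member 21 at 2.59 CPM and member 26 at 2.76 CPM in replicate 6, and member 23 at 9.04 CPM in replicate 9. In S, member 7 stood at 91.9 CPM in replicate 2, member 28 at 17.3 CPM in replicate 3 and member 32 at 8.19 CPM in replicate 8, and member 20 was lowest in replicate 5, at 6.02 CPM. In I, member 18 stood at 148 CPM and member 19 at 25.2 CPM in replicate 5, and member 23 at 45.7 CPM in replicate 7.

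In M, replicate 8 was high for member 10 (25.9 CPM), member 11 (8.99 CPM) and member 17 (9.35 CPM). Member 20 stood at 56.6 CPM in replicate 5, member 24 at 3.52 CPM in replicate 6 and member 34 at 227 CPM in replicate 3. No library was flagged for its mean over the members.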

How the results depend on the processing

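The number of genes chosen by the rule was 28 to 40 without 1 animal, 32 with RLE factors and 28 without scaling or with means in place of medians. It was 77 with a limit of 2 times O and 16 with a limit of 5 times O. In muscle without 1 animal, higher and lower members numbered 5 to 6 and 15 to 18 against S, 5 to 6 and 17 to 22 against I, and 10 to 11 and 2 to 3 against O. Without a count filter 5 members were lower in M than in O, with more genes tested. With the animal as a replicate block the counts were 6 and 16, 6 and 19, and 12 and 3, and of the 13 members followed singly the block changed the call of ENSBTAG00000040082 against S alone. Member 4 was higher in M than in O by 1.31 ± 0.43 on the log2 scale (edgeR adjusted p = 0.00962), and it missed the threshold without any one of 8 animals (0.0111 to 0.0459). Without scaling, all genes tested shifted by -0.94, -0.79 and -0.97 on the log2 scale against S, I and O, and the share of calls that were higher in M fell from 48.6%, 50.1% and 47.1% of all genes to 17.4%, 20.1% and 16.2%. Among member calls it went from 23.8%, 23.1% and 78.6% to 18.2%, 14.3% and 69.2%, and member 8 turned to -0.02 against I. No member was called by sex in any fit. The medians of the SD in S and I, and the share at 3 times O in the animal left out, moved by less than their spread under RLE factors, and the SDs also did so under a pseudocount of 0.1 CPM. Members under about 1 CPM rest on few counts, and their ratios are imprecise.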

Other observations

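Some extremes were shared by tissues of one animal. Member 7 was highest in animal 2 in O (55.0 CPM, next 15.4) and in S (91.9 CPM, next 42.1), and the I library of that animal had 293 CPM, below 384 CPM in animal 8. In M the highest library was that of animal 5, at 111 CPM. ENSBTAG00000014113 was highest in animal 5 in O (6.09 CPM) and in I (148 CPM, next 35.8), whereas its highest S library was that of animal 6, at 17.8 CPM. These members were picked after their values were seen, and no test was made.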
